A study of Mus musculus with 10 samples.

Results

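IGHV8 and IGHV9 are small families of heavy chain variable (V) gene segments of the mouse Igh locus. Clonotypes of these families were counted here in peritoneal cavity B-1a cells of wild-type and Igll1-/- mice. The members were the clonotypes whose listing named exactly 1 of 7 segments, namely IGHV8-5, IGHV8-8, IGHV8-12, IGHV9-1, IGHV9-2, IGHV9-3 and IGHV9-4, and no alternative. They numbered 8577 of 195529 clonotypes, or 4.39%, and held 45534 of 894770 reads, or 5.09%. The B-1a cells had been sorted from C57BL/6 mice aged 6 to 8 weeks, with 2 Igh libraries of wild-type cells and 2 of Igll1-/- cells. Igll1 encodes a component of the surrogate light chain (SLC), which pairs with a new heavy chain in the pre-BCR before a light chain gene has been rearranged, and cells without it form no pre-BCR. The comparison asks whether heavy chain V usage differs when B-1a cells develop without that receptor. The authors propose that B-1a cells typically arise without a need for SLC, and they report similar heavy chain V usage in both genotypes. The libraries hold rearranged DNA, so neither the absence of Igll1 nor the expression markers of B-1a cells can be checked in them. IGHV12-3 and IGHV11-2 are the V segments of phosphatidylcholine-binding B-1a receptors. IGHV12-3 took 5.09% and 4.62% of the clonotypes in the wild-type and 4.48% and 4.32% in the Igll1-/- libraries. IGHV11-2 took 2.99% and 4.79% in the wild-type but only 0.821% and 0.960% in the Igll1-/- libraries.

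A heavy chain is assembled by joining a V, a D and a J segment, and the junction encodes CDR3, the most variable loop of the antigen-binding site. The last codons of the V segment contribute the first residues of CDR3, so these residues differ between V segments. The pre-BCR normally tests the new heavy chain, and V segments whose chains pair poorly with SLC are depleted at that checkpoint. The locus lies on chromosome 12, and in the RefSeq annotation of GRCm38.p6 the members fell into 2 regions. Counted from the D-proximal end, IGHV9-1, IGHV9-2 and IGHV9-3 were the segments 46, 48 and 50 of 183 and alternated with IGHV12-1 and IGHV12-2, and IGHV9-4, segment 60, lay between IGHV3-6 and IGHV3-7. The IGHV8 segments lay in the D-distal part among IGHV1 segments, IGHV8-5 at position 132, IGHV8-8 at 143 and IGHV8-12 at 162.

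The amino acid sequences of CDR3 below, read from the deposited tables, are those on which the results turn. They belong to clonotypes that held most reads of a segment in a library or that occurred in all 4 libraries, and need not have the start most common for the segment.
Clonotype of IGHV8-5, largest in wild-type library 1: AQLYYGSSYRYFDV
Clonotype of IGHV8-8, in all 4 libraries: ARIYYGNYYFDY
Clonotype of IGHV8-12, largest in Igll1-/- library 1: ARIYYDYAMDY
Clonotype of IGHV9-1, in all 4 libraries, largest in both wild-type libraries: VTAWFAY
Clonotype of IGHV9-1, in all 4 libraries: VRESNYFDY
Clonotype of IGHV9-2, in all 4 libraries, largest in Igll1-/- library 1: ANWDY
Clonotype of IGHV9-3, largest in Igll1-/- library 2: ARSTVVAMDY
Clonotype of IGHV9-3, largest in Igll1-/- library 1: ARFTTVVFDY
Clonotype of IGHV9-4, in all 4 libraries, largest in wild-type library 1: ARDFDY
Clonotype of IGHV9-4, in all 4 libraries, largest in Igll1-/- library 1: ARSNWDWYFDV

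The wild-type libraries held 55129 and 49809 clonotypes and the Igll1-/- libraries 32386 and 58205, from 180593 to 285517 reads each. Clonotypes of 1 read made up 68.0% to 73.4% of each library, and 14.3% to 21.3% named several V segments and were counted to none. The 2 libraries of a genotype differed by more than counting noise (chi-square 3504 with 134 degrees of freedom for wild-type and 3471 with 131 for Igll1-/-). The sources used here do not say which mice a library came from, so p-values measure the spread between libraries. Intervals below are 95% Wilson intervals and cover counting error only, since reads were amplified by PCR without molecular barcodes. A count of 0 allows a share of up to 0.00515% to 0.00926% of the clonotypes of a library.

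IGHV9-4 was the most frequent member. It accounted for 952 and 1035 clonotypes in the wild-type libraries, 1.73% (1.62% to 1.84%) and 2.08% (1.96% to 2.21%), and for 527 and 665 in the Igll1-/- libraries, 1.63% (1.495% to 1.77%) and 1.14% (1.06% to 1.23%). IGHV9-1 followed with 1.32% and 1.02% in the wild-type and 1.498% and 0.899% in the Igll1-/- libraries. IGHV9-4 stood above IGHV9-1 in each library, but in Igll1-/- library 1 their intervals overlapped. IGHV9-2 had 0.682% and 0.833% in the wild-type and 0.621% and 0.392% in the Igll1-/- libraries. IGHV8-8 was next, with 0.673% and 0.739% against 0.574% and 0.294%, and the intervals of these neighbours overlapped in 3 of the 4 libraries, with 376 clonotypes of IGHV9-2 and 371 of IGHV8-8 in wild-type library 1. IGHV8-12 took 0.352% and 0.375% of wild-type and 0.262% and 0.1598% of Igll1-/- clonotypes. IGHV9-3 took 0.167% and 0.102% against 0.0618% and 0.0807%. IGHV8-5 was the rarest, with 26 clonotypes in each wild-type library and 5 and 9 in the Igll1-/- libraries. The order of the 7 segments was the same in each of the 4 libraries, and the intervals of the remaining neighbours did not overlap. The PCR started from primers within framework region 3, so the share of a segment reflects both its cells and its primer, which cannot be told apart. Among 91 V segments, the 3 whose level was most like that of IGHV9-4 were IGHV1-39, IGHV6-6 and IGHV1-9, with a root mean square difference of 0.32, 0.34 and 0.42 on the log2 scale over the 4 libraries.

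**Figure D1:**
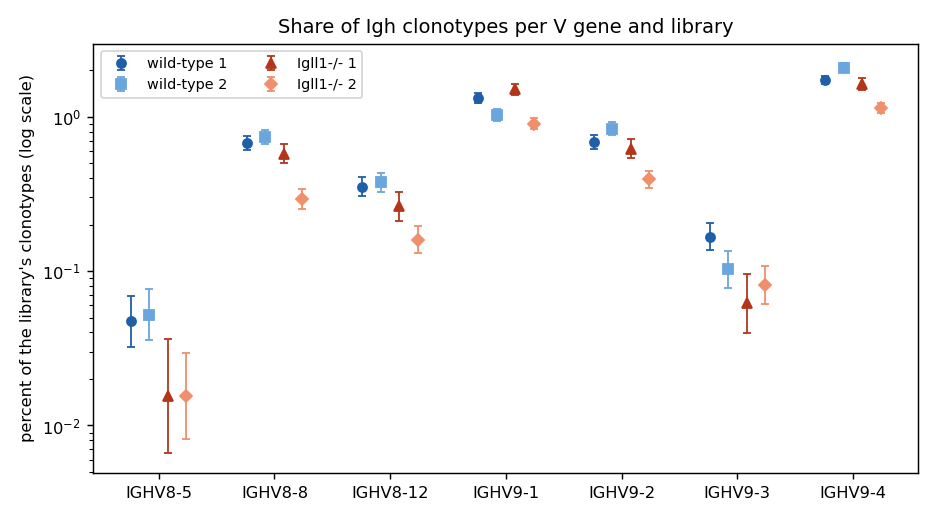
Percent of all clonotypes of a library (log scale) for each of the 7 segments, with a point per library and bars for 95% Wilson intervals. Both Igll1-/- points lie below both wild-type points for every segment except IGHV9-1.

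No member passed the test between genotypes, although most leaned the same way. Both Igll1-/- libraries lay below both wild-type libraries for 6 of the 7 segments, or 85.7%, whereas this held for 19.8% of the 91 V segments tested and for 14.3% of the 84 that were not members. No member lay above, which held for 17.6% of the 91. By reads in place of clonotypes both Igll1-/- libraries lay below for only 3 of the 7, IGHV8-5, IGHV8-8 and IGHV8-12, against 19.8% of the 91, and the groups of the 4 IGHV9 segments overlapped. With edgeR's quasi-likelihood test and Benjamini-Hochberg adjustment 0 of 91 V segments passed at an adjusted p of 0.05 (0%), 8 had an unadjusted p under 0.05, and of the members only IGHV8-5 was among those 8. The median log2 fold change, Igll1-/- over wild-type, was -0.71 over the members and -0.03 over all V segments tested. IGHV8-5, at 0.0497% ± 0.0036 (SD, n = 2) and 0.0155% ± 0.000017, gave -1.67 ± 0.52 (SE) for the log2 ratio of shares (edgeR adjusted p = 0.412). It met the filter of 10 clonotypes only in the wild-type libraries, so that a lower value in Igll1-/- was favoured by the filter. Without IGHV8-5, 5 of 6 members lay below, the median was -0.64 and 0 had an unadjusted p under 0.05 in edgeR's test. IGHV9-3 was among those below, but its groups overlapped once clonotypes listed as IGHV9-2-1 or IGHV9-3 were counted to it. IGHV8-12 had a change of -0.79 ± 0.48 (edgeR adjusted p = 0.599), from 0.364% ± 0.017 to 0.211% ± 0.073. IGHV8-8 had -0.71 ± 0.49 (edgeR adjusted p = 0.620), from 0.706% ± 0.047 to 0.434% ± 0.198. The SD was larger in the Igll1-/- group for IGHV8-8, IGHV8-12, IGHV9-1, IGHV9-2 and IGHV9-4, for which library 2 held the lower value, and smaller for IGHV8-5 and IGHV9-3. With 1 library left out the values ranged from -1.26 to -0.30 for IGHV8-8, -1.19 to -0.47 for IGHV8-12, -1.22 to -0.52 for IGHV9-3, -0.95 to -0.29 for IGHV9-2 and -0.74 to -0.23 for IGHV9-4.

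Of the IGHV9 segments, IGHV9-4 had a value of -0.46 ± 0.31 (edgeR adjusted p = 0.610) and IGHV9-2 of -0.58 ± 0.43 (edgeR adjusted p = 0.645). IGHV9-1 made up 1.17% ± 0.21 and 1.20% ± 0.42 of wild-type and Igll1-/- clonotypes, a log2 ratio of 0.03 ± 0.39 (edgeR adjusted p = 0.977), and its sign changed when clonotypes of 1 read were left out (-0.057). IGHV9-3 had a value of -0.91 ± 0.53 (edgeR adjusted p = 0.599) by clonotypes but 1.19 by reads. Summed over the segments described, IGHV8 went from 1.12% ± 0.067 (SD, n = 2) of wild-type clonotypes to 0.661% ± 0.271, and IGHV9 from 3.97% ± 0.098 to 3.16% ± 0.915. The D-distal IGHV1 family, with which the IGHV8 segments are interspersed, held 45.8% ± 2.7 and 44.7% ± 1.2 in the same libraries. The small IGHV3 family held 0.741% ± 0.312 and 0.625% ± 0.028, and IGHV14 0.712% ± 0.309 and 1.03% ± 0.15.

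IGHV9-3, counted where it was listed alone, stood apart from the other members in how its reads were spread. It had 92, 51, 20 and 47 clonotypes in wild-type libraries 1 and 2 and Igll1-/- libraries 1 and 2, yet 1940, 3981, 2948 and 13367 reads. Its share of reads was thus 0.898% and 1.87% in the wild-type and 1.63% and 4.68% in the Igll1-/- libraries, which ranked it between the 4th and the 23rd V segment by reads but only between the 58th and the 70th by clonotypes. A clonotype of IGHV9-3 averaged 21.1 and 78.1 reads in the wild-type and 147 and 284 in the Igll1-/- libraries, against 1 to 4.996 in each other member. Only 9.80% to 25% of its clonotypes had 1 read, against 71.2% to 75.8% of the clonotypes of the other members. In Igll1-/- library 2, 22 IGHV9-3 clonotypes had at least 100 reads, against 6 of the other members together, and its 5 largest held 59.4% of its reads.

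**Figure D2:**
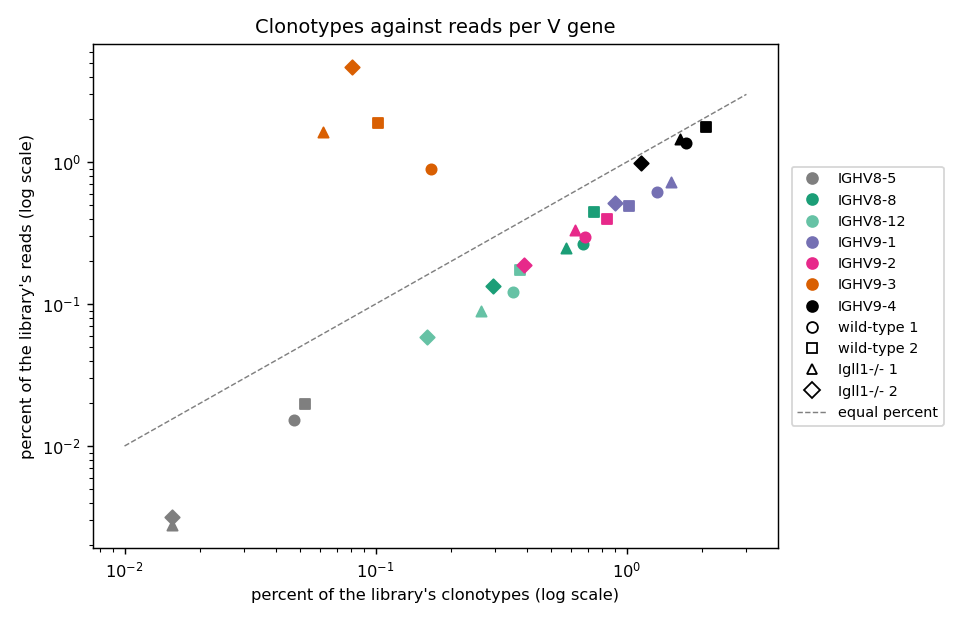
Percent of a library's reads against percent of its clonotypes (both log scales), coloured by segment, with a marker shape per library and a dashed line where both are equal. The 4 IGHV9-3 points lie above the line and the points of the other members lie below it.

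The listing of IGHV9-3 bears on these counts. In the 4 libraries 1036, 1563, 778 and 1497 clonotypes were listed as IGHV9-2-1 or IGHV9-3, without a choice between them, and so were not members. They made up 1.88% and 3.14% of the wild-type and 2.40% and 2.57% of the Igll1-/- clonotypes, more than any member in each of the 4 libraries. They averaged only 5.09 and 8.64 reads in the wild-type and 10.2 and 7.16 in the Igll1-/- libraries, and 51.6% to 57.5% had 1 read. The high reads per clonotype above thus belong to clonotypes listed as IGHV9-3 alone. Their median identity to the germline V sequence was 100% in each library, whereas only 1, 1, 1 and 2 clonotypes of IGHV9-3 itself had full identity. The median identity of IGHV9-3 was 89.5% in wild-type library 1 and 99.02% in the other 3, and 85 of 92 clonotypes in the former and all in the latter were assigned to allele *02. With the shared listings counted to IGHV9-3, its share was 2.05% and 3.24% in the wild-type and 2.46% and 2.65% in the Igll1-/- libraries, with groups that overlap, and its log2 fold change was -0.05 (edgeR adjusted p = 0.938). Its share of reads was then 3.34% and 8.22% in the wild-type and 6.01% and 8.43% in the Igll1-/- libraries, which also overlap.

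The CDR3s of the IGHV8 segments were longer than those of the IGHV9 segments. Productive clonotypes of IGHV8-8 averaged 12.2 and 12.1 residues in the wild-type and 12.01 and 12.4 in the Igll1-/- libraries. IGHV8-12 averaged 12.3, 12.6, 11.99 and 12.1 in the same order. The rare IGHV8-5 had 12.3 and 11.8 in the wild-type libraries, and 12.5 and 10.8 over only 4 and 8 clonotypes in the Igll1-/- libraries. The IGHV9 means ran from 9.14 for IGHV9-3 in wild-type library 2 to 10.4 for IGHV9-2 in Igll1-/- library 1. In each library every IGHV8 mean lay above every IGHV9 mean. All other V segments together averaged 10.9 and 10.6 residues in the wild-type and 10.6 and 10.4 in the Igll1-/- libraries.

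Against the other V segments of the same library, IGHV8-12 was longer by 1.66 ± 0.28 residues (SD over 4 libraries) and IGHV8-8 by 1.56 ± 0.28. IGHV9-1 differed by -0.610 ± 0.095 residues, and IGHV9-4, IGHV9-3 and IGHV9-2 differed by -0.673 ± 0.231, -0.819 ± 0.462 and -0.354 ± 0.213. Each of these 6 differences had 1 direction in all 4 libraries. The exact sign-flip test over 4 libraries cannot go below p = 0.125, which it gave for each (two-sided; adjusted p = 0.301 over all V segments and measures). With limma over the same libraries 5 of the 6 passed, with adjusted p = 0.000273 for both IGHV8 segments, 0.00622 for IGHV9-1, 0.00806 for IGHV9-4 and 0.0120 for IGHV9-3, and 0.0648 for IGHV9-2. Here and below, limma p-values were adjusted over the V segments of a single measure, a narrower set than for the exact test. With at least 2 reads the difference of IGHV9-2 was -0.172, in this direction in 3 of 4 libraries. Differences of this kind were common, since 51.9% of the 77 V segments tested passed and 64.9% had the same direction in all 4 libraries. By genotype no member passed, whereas 1 of 77 V segments did (1.30%). The value of IGHV8-12 was -0.43 residues (limma adjusted p = 0.557), and the median was 0.05 over the members and -0.17 over all V segments tested.

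**Figure D3:**
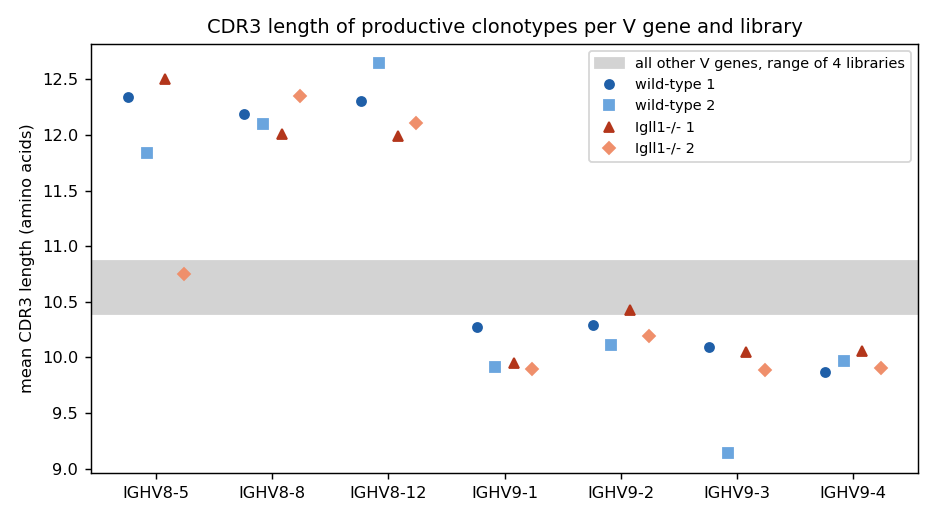
Mean CDR3 length of productive clonotypes (amino acids) per segment, with a point per library and a grey band for the range of all other V segments over the 4 libraries. IGHV8-8 and IGHV8-12 lie at 11.99 to 12.6 residues, above the band, and every IGHV9 point except that of IGHV9-2 in Igll1-/- library 1 lies below it.

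The residues at the start of CDR3 separated the segments. IGHV8-8 CDR3s began with ARI in 58.3%, 44.8%, 46.1% and 44.8% of its productive clonotypes in the 4 libraries, as in ARIYYGNYYFDY above, whereas 0.456% to 1.18% of the clonotypes of other V segments did. IGHV8-12 began with ARR in 30.5% to 42.9%, against 4.87% to 5.71% among other V segments. ARI was not limited to IGHV8-8, since IGHV8-12 began with it in 4.95% and 12.1% of the wild-type and 8.54% and 5.49% of the Igll1-/- productive clonotypes. Its largest clonotype of Igll1-/- library 1 was among these. IGHV8-5 began with AQ in 19 of 26 and 12 of 25 productive clonotypes of the wild-type libraries and in 0 of 4 and 7 of 8 of the Igll1-/- libraries, against at most 0.131% elsewhere.

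IGHV9-1 was the member with 2 kinds of CDR3. Its productive clonotypes began with V in 67.4% and 39.0% of the wild-type and 53.2% and 57.4% of the Igll1-/- libraries, and with A in 29.9%, 57.3%, 38.9% and 41.0%. Among other V segments 1.22% to 2.002% began with V. The 2 kinds differed in whether the same CDR3 and J segment were listed in the same library under another V segment with at least 10 times the reads. That was the case for 0% to 0.697% of the IGHV9-1 clonotypes that began with V, but for 39.7% to 75.5% of those that began with A. Over all clonotypes of a library with a single V the share was highest for IGHV9-2 among the members, at 22.6% and 61.7% in the wild-type and 48.3% and 44.3% in the Igll1-/- libraries, whereas IGHV9-3 had 6.52% and 1.96%, and 0% and 10.6%. The share of IGHV9-3 was below that of each other member except IGHV8-5 (3.85%) and IGHV8-8 (5.66%) in wild-type library 1. The V segments outside the 7 had 10.5% and 29.5%, and 21.5% and 29.9%. Without such clonotypes the log2 fold changes in share of the 7 segments ran from -1.63 for IGHV8-5 to 0.17 for IGHV9-1, each with the sign it had before.

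**Figure D4:**
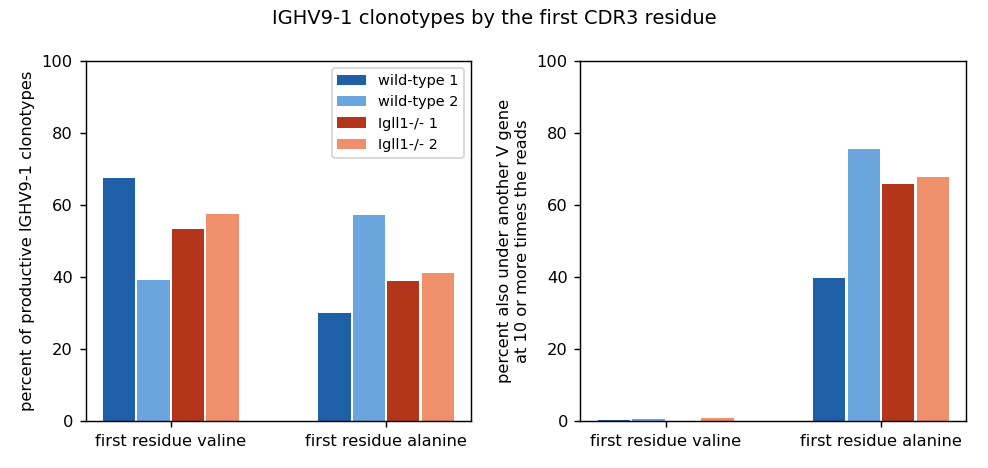
Productive IGHV9-1 clonotypes by the first residue of CDR3, as percent of the clonotypes (left) and as percent whose CDR3 and J segment also occurred under another V segment at 10 or more times the reads (right), with a bar per library. Nearly none of the valine clonotypes but 39.7% to 75.5% of the alanine clonotypes have such a larger counterpart.

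IGHJ2 was the J segment used most by each member by mean share. It made up 50.9% and 48.6% of IGHV8-8 clonotypes in the wild-type and 48.9% and 46.8% in the Igll1-/- libraries, and 50% to 62.0% of those of IGHV9-3. Among V segments outside the 7 it made up 42.9% to 44.0%. IGHV9-3 exceeded the other V segments by 13.2 ± 4.7 percentage points (SD over 4 libraries; limma adjusted p = 0.0181), and 5.06% of 79 V segments passed with a higher use of this J segment. IGHJ3 was used less by IGHV8-12, by -10.1 ± 3.8 points (limma adjusted p = 0.0163), by IGHV8-8, by -6.62 ± 1.20 (0.0155), and by IGHV9-3, by -4.84 ± 0.38 (0.0264), where 17.7% of V segments passed with a lower use. IGHV9-3 had only 20 clonotypes in Igll1-/- library 1, 4 of them with IGHJ3, and libraries were not weighted by their counts. The SD of its differences does not include this counting error. All J values of IGHV9-3 cover clonotypes listed as IGHV9-3 alone, which the shared listings with IGHV9-2-1 outnumbered in each library. The median identity of those listed alone was 89.5% in wild-type library 1 and 99.02% in the others. The J use of the shared listings is not given here. IGHJ1 was used less by IGHV9-3, by -8.92 ± 2.84 points (limma adjusted p = 0.0220), and by IGHV9-1, by -4.83 ± 2.49 (0.04999; -8.75 points with at least 2 reads), where 25.3% passed with a lower use. The exact test again gave p = 0.125 for each, its smallest value. In IGHV9-4 the use of IGHJ1 was 26.6% in Igll1-/- library 1 and 8.27% to 13.1% in the other 3.

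**Figure D5:**
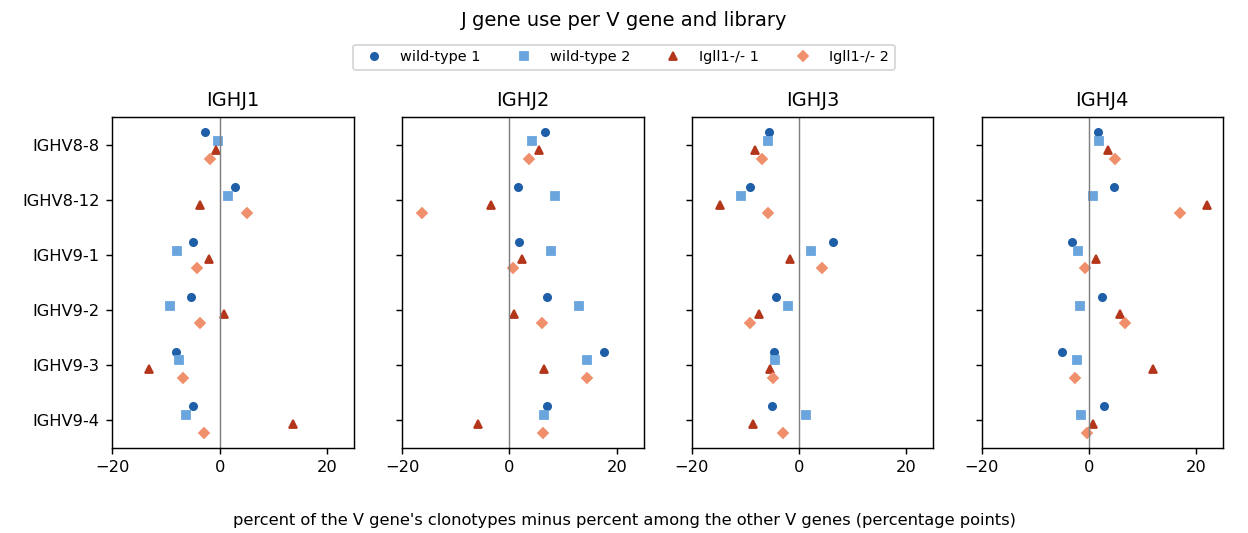
Percent of a segment's clonotypes joined to each J segment minus the percent among all other V segments of the same library, in percentage points, with a point per library. All 4 points of IGHV8-8, IGHV8-12 and IGHV9-3 lie left of 0 for IGHJ3, and those of IGHV9-3 lie right of 0 for IGHJ2.

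No V-J pair of a member differed between genotypes in edgeR's quasi-likelihood test, in which 1 of 272 pairs passed (0.368%). By mean share over the 4 libraries the most frequent pair of each member was with IGHJ2, although IGHV8-12 had as many clonotypes with IGHJ4 in Igll1-/- library 1 and more in library 2, and IGHV8-5 did not lead with IGHJ2 in wild-type library 2 or Igll1-/- library 1. In all, 22 pairs of members were tested, with adjusted p from 0.558 to 0.988. Both Igll1-/- libraries lay below both wild-type libraries for 11 of these 22 pairs, against 20.2% of all pairs. IGHV8-12 with IGHJ2 had 89 and 99 clonotypes in the wild-type and 34 and 25 in the Igll1-/- libraries, a log2 fold change in share of -1.31 ± 0.60 (edgeR adjusted p = 0.558), and -2.06 to -0.78 with 1 library left out. IGHV9-4 with IGHJ2 made up 0.885% and 1.06% of the wild-type and 0.614% and 0.562% of the Igll1-/- clonotypes, a change of -0.72 ± 0.34 (edgeR adjusted p = 0.573). The use of IGHJ4 by IGHV8-12 was 22.7% and 18.7% in the wild-type and 40.0% and 36.6% in the Igll1-/- libraries, and for this pair the log2 ratio was 0.11 ± 0.57 (edgeR adjusted p = 0.959).

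D segments of the IGHD1 family, mostly IGHD1-1, were joined to IGHV8-12 in 39.2% and 47.1% of wild-type and 48.2% and 45.2% of Igll1-/- clonotypes. This was 11.8 ± 4.0 points more than in the other V segments (limma adjusted p = 0.0378, with 5.06% of 79 V segments passing in this direction), and 9.07 points, in 3 of 4 libraries, with at least 2 reads. Clonotypes with no assignable D segment were rarer in the IGHV8 segments, 0.535% to 2.35% for IGHV8-12 and 0% to 0.809% for IGHV8-8, than in V segments outside the 7, 4.92% to 6.25%. The differences were -3.95 ± 0.76 points for IGHV8-12 (limma adjusted p = 0.0182; -7.25 with at least 2 reads) and -5.15 ± 0.85 for IGHV8-8 (0.0121), where 10.1% of V segments passed in this direction. IGHV9-1, IGHV9-2 and IGHV9-4 had 4.35% to 6.93% without a D segment.

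Productive rearrangements made up most clonotypes of each member. The share was 95.7% to 97.0% for IGHV8-8, 93.0% to 97.8% for IGHV8-12, 95.6% to 96.5% for IGHV9-1, 91.5% to 96.6% for IGHV9-2, 91.5% to 100% for IGHV9-3 and 93.0% to 95.6% for IGHV9-4. V segments outside the 7 had 92.0% to 93.5%. IGHV8-8 exceeded the other V segments by 3.42 ± 1.03 points and IGHV9-1 by 3.24 ± 0.89 (limma adjusted p = 0.0570 for each), in all 4 libraries, and 0% of 79 V segments passed. By genotype 0 of 79 V segments passed in edgeR's test, with 10 at an unadjusted p under 0.05, none of them among the 6 members tested. For IGHV8-12 the odds of being productive differed by 1.23 ± 0.63 on the log2 scale (edgeR adjusted p = 0.403), from 93.8% and 93.0% to 96.5% and 97.8%. That rested on 12 and 13 unproductive clonotypes in the wild-type and 3 and 2 in the Igll1-/- libraries.

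The largest clonotypes differed from library to library in most members. In IGHV9-3 they were ARSTTVVDY with 99 reads and ARGYFDV with 446 in the wild-type libraries, and ARFTTVVFDY with 773 and ARSTVVAMDY with 2998 in the Igll1-/- libraries. ARSTVVAMDY joined IGHD1-1 and IGHJ4, made up 1.05% of the reads of Igll1-/- library 2, had 645 reads in Igll1-/- library 1 and was not listed under IGHV9-3 in either wild-type library. ATMITTWFAY followed in Igll1-/- library 2 with 2404 reads and was not listed under IGHV9-3 in the others. Only 8 of the 199 distinct IGHV9-3 clonotypes occurred in more than 1 library. Thus 191 of the 199 occurred in 1 library, against 106283 of 123776 for V segments outside the 7. Of the 8, ARFTTVVFDY, ARGLYYFDY, ARLLRYFDY and ARSTVVAMDY were listed under IGHV9-3 in both Igll1-/- libraries and in neither wild-type library. ARYSNYFDY was so listed in both wild-type libraries alone. ARLDGYYFAY, with 22 and 1 reads, and ARYGYDY, with 135 and 138, occurred in 1 library of each genotype. ARYDYDAY occurred in 3 libraries, with 20, 278, 320 and 0 reads. These absences hold for the IGHV9-3 listing only, since clonotypes listed as IGHV9-2-1 or IGHV9-3 were not included. Such counts are not given for other V segments, so they do not show a difference between genotypes.

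In IGHV9-4 the largest clonotypes were ARDFDY with 237 reads and ARYDYAMDY with 216 in the wild-type libraries, and ARSNWDWYFDV with 936 and ATVVADY with 527 in the Igll1-/- libraries. ARSNWDWYFDV held 35.5% of the IGHV9-4 reads of Igll1-/- library 1 and used IGHD4-1 and IGHJ1. In IGHV9-1 VTAWFAY was largest in both wild-type libraries, with 86 and 174 reads, and had 1 read in each Igll1-/- library, where SNYFDY with 192 and VRSAQATFAY with 245 led. In IGHV9-2 they were ARWGSSGYYFDY with 32, ARRDFDY with 63, ANWDY with 154 and ARSGYYAMDY with 74 reads. ANWDY, with 255 reads under another V listing of the same library, held 25.5% of the IGHV9-2 reads of Igll1-/- library 1. In each of the other libraries ANWDY had only 1 read under IGHV9-2. The IGHV8 clonotypes were smaller. Those of IGHV8-8 were ARIITTVVVDY with 15, ARIAGYYDY with 67, ARIATIVIDY with 75 and ARNWDYFDY with 60 reads. Those of IGHV8-12 had 12, 40, 23 and 16 reads, with ARSFTTVVADY, a CDR3 of 16 residues, ARIYYDYAMDY and ARSYYGSSYAMDY. No IGHV8-5 clonotype exceeded 6 reads.

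Of 7442 distinct member clonotypes, defined by V, J and CDR3, 52 occurred in all 4 libraries, or 0.699%, against 1415 of 123776 (1.14%) of the other V segments. They comprised 27 of IGHV9-4, 18 of IGHV9-1, 5 of IGHV9-2, 2 of IGHV8-8 and none of IGHV8-5, IGHV8-12 or IGHV9-3. All 18 of IGHV9-1 began with V, among them VRESNYFDY with 7, 1, 3 and 5 reads. The shared clonotypes averaged 9.07 residues in IGHV9-4, 9.83 in IGHV9-1 and 9.80 in IGHV9-2, against 10.3, 10.3 and 10.4 for clonotypes of these segments found in 1 library. The other V segments differed in the same direction, 9.81 against 10.9, and IGHV8-8 in the opposite one, 12.5 over its 2 shared clonotypes against 12.2. Both of IGHV8-8, ARIYYGNYYFDY and ARHYYGSSYYFDY, used IGHJ2 and had 1 to 5 reads in each library, and ARHYYGSSYYFDY was also among those of IGHV9-4 with 7, 7, 7 and 4 reads. ARSNWDWYFDV, with 938 reads in Igll1-/- library 1 when all rows of the same V, J and CDR3 are summed, had 10, 1 and 6 in the others, and ARDFDY had 237 and 102 reads in the wild-type and 1 and 5 in the Igll1-/- libraries.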

How the data were processed

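The authors sorted the cells, amplified rearranged Igh DNA with framework region 3 and J primers adapted from BIOMED-2, kept products of 120 to 280 bp and sequenced them on an Illumina HiSeq. Reads were assigned with IMGT/High-V-QUEST, whose version is not given in the sources used here. Each deposited table has 1 row per clonotype with its raw read count and the percent identity to the germline V sequence given by the authors, and it names no genome build. The Igk libraries were not used here. The marker gate of the sort and 1 kind of CDR3 start are not reported here.

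From these tables clonotypes were counted once each on a single listed V segment, with all clonotypes as the library size. The members and lists were chosen with earlier results of these data known. V segments and V-J pairs that reached 10 clonotypes in 2 or more libraries, and productive shares, were tested with edgeR 4.0.16, and mean CDR3 lengths with limma 3.58.1, at a Benjamini-Hochberg adjusted p of 0.05. Productive shares and lengths needed at least 10 clonotypes in all 4 libraries, which left out IGHV8-5. Each V segment was set against the other V segments of its library with an exact sign-flip test over 66 differences of members, and, chosen after seeing the data, with limma, with at least 2 reads, without clonotypes whose CDR3 a larger clonotype of another V segment shares and, for CDR3 length, weighted by reads. Adjustment ran over all V segments and measures for the exact test, and within each measure for limma. All members are described, with each one's most frequent V-J pair, its largest productive clonotype in each library, its clonotypes found in all 4 libraries, and the 3 V segments nearest in level to the most frequent member. The tests were checked on simulated counts. Alternatives were reads, read minimums, productive clonotypes, merged clonotypes, TMM, DESeq2 1.42.0, no filter, the replicate number as a block, and leaving out each library.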

Additional observations from a re-analysis of the deposited data

How the results depend on the processing

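No member passed an adjusted p of 0.05 between genotypes in any alternative run, for clonotype share, productive share, CDR3 length or its main V-J pair, and 92 of 98 alternative values of the log2 fold change in share had the main sign. The exceptions were IGHV9-3 by reads (1.19) and IGHV9-1 with at least 2 reads (-0.057), merged clonotypes (-0.0082) or the replicate block (-0.0043), and without 1 library (range -0.38 to 0.35).

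V segments passing for share numbered 0 of 91, and 1 by reads, 3 with at least 10 reads, 1 by DESeq2, 1 without clonotypes whose CDR3 a larger clonotype of another V segment shares, and 0 to 6 without 1 library. Productive shares gave 1 with at least 2 reads, 5 with the replicate block and 0 to 8 without 1 library. CDR3 lengths gave 0 with at least 2 reads, weighted by reads or with the block, against 1, and 0 to 3 without 1 library. V-J pairs gave 0 to 8 without 1 library, against 1. The replicate number is the only link between libraries in the labels. Deviations of equally numbered libraries correlated at r = 0.324 across 91 V segments, for 2 pairs only. The block changed no call of a member.

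Productive odds reversed for IGHV8-8 (1.38) and IGHV9-4 (0.25) with at least 2 reads and for IGHV9-2 (-0.017) with merged clonotypes. Without 1 library they ranged from -0.23 to 0.11 for IGHV9-1, -0.76 to 0.65 for IGHV9-2 and -0.36 to 0.34 for IGHV9-4, crossing 0. Differences in CDR3 length by genotype reversed with at least 2 reads for IGHV8-8 (-0.077) and IGHV9-1 (0.095), and weighted by reads for IGHV8-8 (-0.043), IGHV9-1 (0.052) and IGHV9-2 (-0.57). Without 1 library they ranged from -0.13 to 0.21 for IGHV8-8, -0.35 to 0.011 for IGHV9-1, -0.0081 to 0.22 for IGHV9-2, -0.12 to 0.83 for IGHV9-3 and -0.015 to 0.14 for IGHV9-4. By reads the IGHJ2 pairs of IGHV9-1 (0.090) and IGHV9-3 (0.27) reversed, and without 1 library that of IGHV9-1 ranged from -0.54 to 0.26. The cause was not tested.

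Against the other V segments of a library, no mean difference in CDR3 length reversed, but that of IGHV9-2 was -0.172 with at least 2 reads, in 3 of 4 libraries, and -0.179 without clonotypes whose CDR3 a larger clonotype of another V segment shares. With limma in place of the exact test IGHV8-8 (1.56), IGHV8-12 (1.66), IGHV9-1 (-0.610), IGHV9-3 (-0.819) and IGHV9-4 (-0.673) passed. Weighted by reads the values were 1.11 for IGHV8-8, -1.36 for IGHV9-1, -0.826 for IGHV9-2, -1.41 for IGHV9-3 and -1.42 for IGHV9-4. With at least 2 reads they were 2.02 for IGHV8-12 and -0.770 for IGHV9-1, and without clonotypes whose CDR3 a larger clonotype of another V segment shares, -0.811 for IGHV9-1 and -0.933 for IGHV9-4.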
